A study of Mus musculus with 82 samples.

Results

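The variable segments of the T cell receptor, the V segments, were read here in naive CD4 T cells sorted from inbred mice. They were taken as the probe sets with at least 1 annotated gene symbol that begins with Trav (alpha chain) or Trbv (beta chain). This gave 31 of 24922 probe sets on the array, 30 for Trav and 1, Trbv1, for Trbv. Each probe set is counted as 1 unit. Of the 31, 7 carry 1 symbol and 24 carry several, and 19 list Trav3n-3 and Trav3-3 together, so the annotation does not say which segment most of them read. They are therefore named by probe set number, with their symbols beside it. Together they hold 20 symbols, namely 19 of the 114 Trav segments and 1 of the 22 Trbv segments that RefSeq lists without pseudogenes.

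A T cell receptor of the common kind is built from an alpha and a beta chain. In each developing T cell, 1 V segment is joined to other segments to make the variable end of each chain, so that V segment RNA in a bulk sample reads how many cells use that segment and how much RNA each makes. The Trav segments lie on mouse chromosome 14, where stretches of the locus are duplicated and near-identical copies are common, and inbred strains differ in the copies they carry. The Trbv segments lie on chromosome 6. Some strains are known to lack a block of Trbv segments, and in others viral superantigens remove T cells by the Trbv segment they use.

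The cells were sorted from spleen as CD3+CD4+CD62L+ and as negative for CD25 and for markers of CD8 T cells, B cells, natural killer cells, myeloid cells and red cells. Each array is a pool of 2 to 3 male mice, 6 weeks old in the labels and 5 weeks old in the series text, with no treatment named in the labels. The 82 arrays fall into 40 strain groups, of which 38 hold 2 arrays, C57BL/6J holds 5 and SWR/J holds 1. The groups are 129S1/SvImJ, A/J, AKR/J, BALB/cByJ, BPL/1J, BTBR T+ tf/J, C3H/HeJ, C57BL/10J, C57BL/6J, C57BLKS/J, C57BR-titled, C57L/J, CAST/EiJ, CBA/CaJ, CBA/J, CE/J, DBA2-titled, DDY/JclSidSeyFrkJ, FVB/NJ, JF1/Ms, KK.Cg-Ay/J, LGJ, LP/J, MA/MyJ, MRL/MpJ, MSM/Ms, NOD/ShiLtJ, NON/ShiLtJ, NOR/LtJ, NZB/BINJ, NZW/LacJ, P/J, PL/J, PWD/PHJ, RIIIS/J, SEA/GnJ, SJL/J, SM/J, SWR/J and WSB/EiJ. For 2 groups the title and the label of genetic background disagree (C57BR in the title with CBA/CaJ in the label, and DBA2 with DBA/1LacJ), so they are named by title. Values are linear intensities, whose median over all values was 113 and whose array medians ran from 102 to 142. Of all values, 10.2 percent lay below 25 and 46.6 percent below 100. T cell markers averaged 11.8 to 12.3 on the log2 scale on all arrays. The 7 measured B cell markers were high on 2 arrays, with a mean of 8.71 on PL/J replicate 2 against 5.78 on PL/J replicate 1, and 7.33 on A/J replicate 2 against 5.76 on A/J replicate 1. The other arrays lay between 5.51 and 6.08. On PL/J replicate 2 the CD8 T cell (8.59), gamma delta T cell (7.81), neutrophil (7.56) and myeloid (7.50) lists also lay above the range of the other arrays, as did the erythroid list there and on A/J replicate 2 (7.09). Of the gamma delta list only 2 of 5 markers were measured, and of the erythroid list 1 of 4. By strain means, Cd8a, Blk, S100a8, S100a9, Elane, Csf1r and Alas2 of these lists were highest in PL/J. Cd8b1, Sox13, Mpo, Lyz2, Cd14 and Itgam were highest in other strains. All T cells of the sort carry both chains, but no probe set of the constant segments was found with which to set the V segments against the amount of receptor RNA.

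Every V segment probe set differed between strains. In the F-test of limma, a linear model fitted to every probe set with p-values adjusted over all of them, all 31 passed at 0.05, whereas 47.6 percent of all probe sets did, and 72.6 percent of the brighter ones, whose highest strain mean exceeded the median intensity. The median SD of strain means was 0.34 on the log2 scale over the V segments and 0.14 over all probe sets. The intraclass correlation, which is the part of the variance found between strains as opposed to between arrays of 1 strain, had a median of 0.887 in the V segments and 0.262 in all probe sets. It reached 0.8 in 24 of the 31 and in 1317 of all. A strain range of 2-fold or more was seen in 28 of the 31, against 4627 of the 24922 probe sets, and one of 8-fold or more in 6, against 271. Of the 31, 25 lay above the median of all values in every strain.

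Arrays of the same strain differed little. In 38 strains with 2 arrays, only NZW/LacJ and SM/J held a V segment that differed by 2-fold or more between them, 1 each, by 1.02 and by 1.30 on the log2 scale. On the 2 PL/J arrays, which differed in B cell markers, the largest difference in any V segment was 0.92. The median of this largest difference over the 38 strains was 0.61. Leaving out PL/J replicate 2 and A/J replicate 2 together changed none of the 31 F-test calls.

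**Figure D1:**
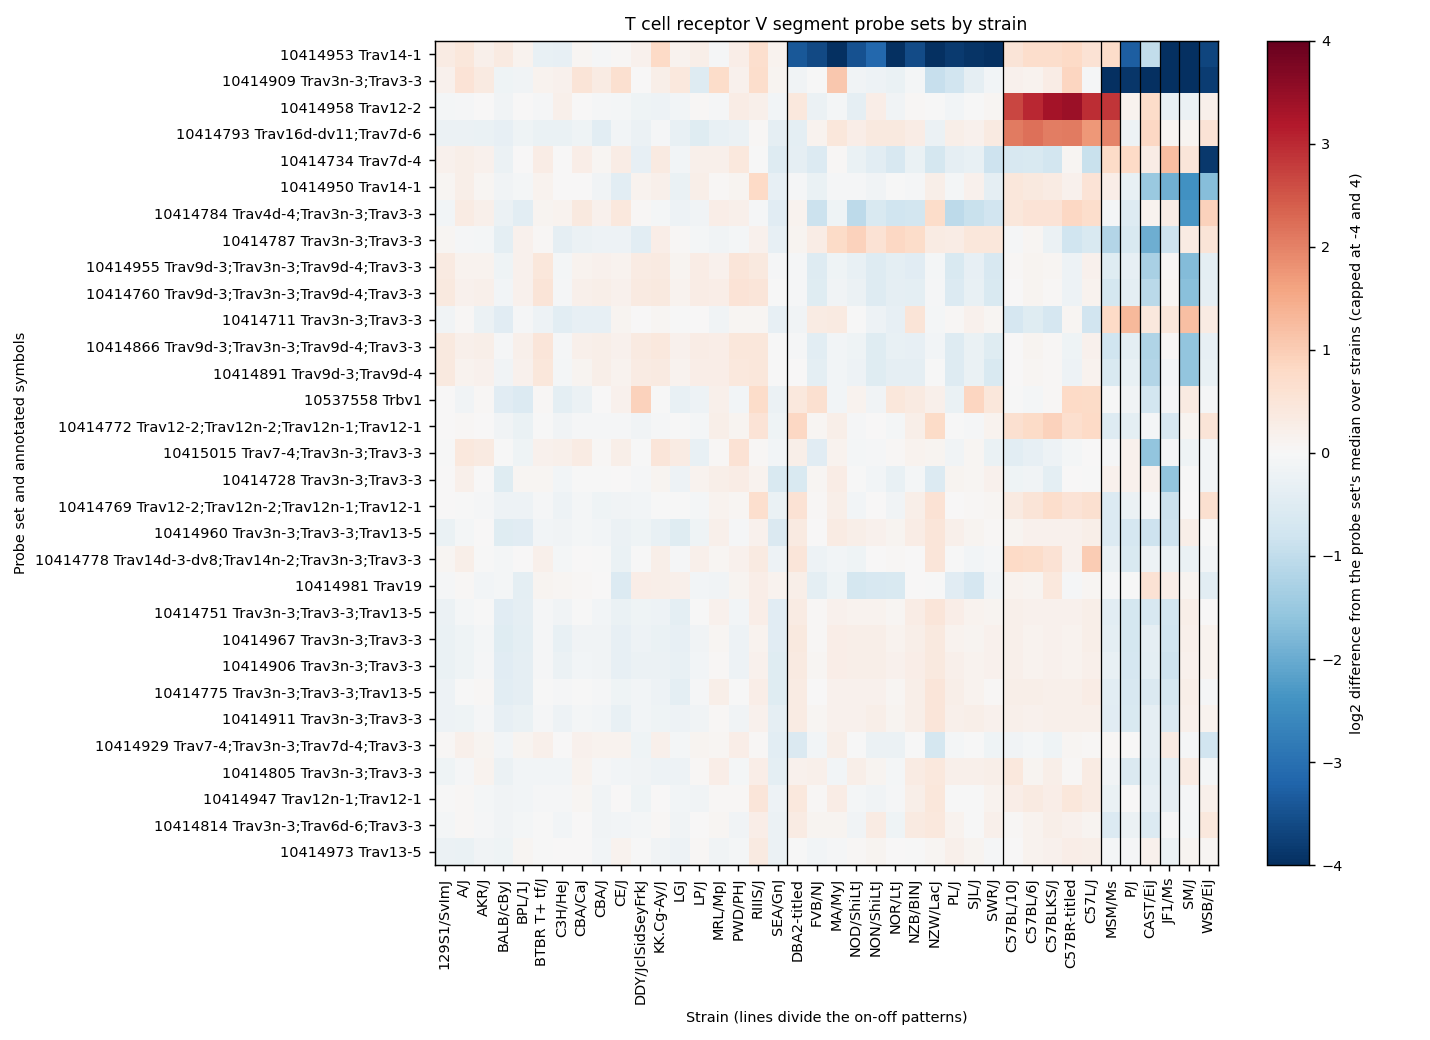
V segment probe sets (down, with their symbols, widest SD of strain means at the top) by strain (across, grouped by the on-off patterns described below). Colour is the log2 difference of the strain mean from the probe set's median over 40 strains, red higher and blue lower, capped at -4 and 4. The few dark blocks at the top are segments whose signal falls away in a set of strains, while most lower rows stay within 1 of their median.

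A segment was called lost in a strain where it was lower than the mean of the other 39 strains by at least 1 on the log2 scale, and gained where it was higher by as much, with a limma adjusted p under 0.05. By this rule there were 39 losses, in 12 of the 31 probe sets and 17 of the 40 strains, and 48 gains. Losses made up 3.15 percent of the 1240 pairs of a V segment and a strain, against 0.217 percent over all probe sets, and gains 3.87 percent, against 0.276 percent. Of the gains, 32 belong to 10414953 and 10414909, where strains count as gained because low strains pull down the mean they are set against. A total of 16 probe sets were neither lost nor gained in any strain. Lost is used of the signal alone. Whether the segment is absent, differs in sequence under the probes or is used by fewer cells was not tested, since the probe sequences were not used here, and fewer cells and less RNA per cell cannot be told apart in bulk samples.

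The widest difference was in 10414953, annotated to Trav14-1, with an SD of strain means of 2.13 and a replicate SD of 0.33 on the log2 scale (F-test adjusted p = 8.75e-33, limma). It read 13.2 on the single SWR/J array, 25.6 and 29.7 in JF1/Ms, 48.9 and 45.5 in SJL/J, 48.1 and 86.6 in NOD/ShiLtJ and 99.6 and 65.8 in NON/ShiLtJ. These are 5 of 15 strains in which it was lost, the others being DBA2-titled, FVB/NJ, MA/MyJ, NOR/LtJ, NZB/BINJ, NZW/LacJ, P/J, PL/J, SM/J and WSB/EiJ. In the other 25 strains it was high, from 280 and 467 in CAST/EiJ through 1233, 989, 1174, 1208 and 1264 in C57BL/6J to 1092 and 1415 in KK.Cg-Ay/J. No array of the 15 strains read above 99.6 and no array of the other 25 read below 280, so the sets do not overlap, and the nearest strain means, of NON/ShiLtJ and CAST/EiJ, lie 2.16 apart on the log2 scale. The losses ran from -1.87 ± 0.22 in NON/ShiLtJ to -4.56 ± 0.31 in SWR/J (log2 difference ± SE from limma, n = 2 arrays and 1 array). With 1 array, the SE of SWR/J rests on the spread within other strains, and its size on a single dim reading. Among strains with 2 arrays the largest loss was -3.46 ± 0.22, in JF1/Ms. These sizes are set against a mean that takes in the other low strains. For NON/ShiLtJ that mean was 295, below the lowest of the high strains, CAST/EiJ at 362. The falls from the level of the high strains are therefore larger than the sizes given.

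The second widest was in 10414909, listed for Trav3n-3 and Trav3-3, with an SD of strain means of 1.67 (adjusted p = 7.25e-33). It read 12.7 and 9.48 in MSM/Ms, 12.9 and 12.5 in JF1/Ms, 16.4 and 11.3 in CAST/EiJ, 19.1 and 14.7 in SM/J, 19.7 and 23.8 in P/J, and 21.6 and 24.8 in WSB/EiJ, among the dimmest values on the arrays. The other 34 strains ran from 119 and 241 in NZW/LacJ to 662 and 706 in MA/MyJ. The 2 sets are again apart on every array, by 2.87 on the log2 scale between the nearest strain means. The losses ran from -3.32 ± 0.18 in WSB/EiJ to -4.43 ± 0.18 in MSM/Ms (SE, n = 2 each). The 6 strains are of mixed origin. As background, CAST/EiJ, MSM/Ms and JF1/Ms derive from mouse subspecies other than Mus musculus domesticus and WSB/EiJ from wild domesticus mice, while SM/J and P/J are classical inbred strains. The fourth strain derived from another subspecies, PWD/PHJ, read 364.6 on average and belongs with the high strains.

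Another pair of probe sets was high in few strains and low in most. Probe set 10414958, annotated to Trav12-2, read 211 and 211 in C57BR-titled mice, 163 and 240 in C57BLKS/J, 208, 98.5, 172, 175 and 168 in C57BL/6J, 136 and 175 in C57L/J, 99.3 and 159 in C57BL/10J and 114 and 177 in MSM/Ms. All other 34 strains lay between 14.9 and 42.6, with CAST/EiJ at the top, so no array of the 6 high strains overlaps with them. The differences from the mean of the others ran from 2.27 ± 0.17 in C57BL/10J to 3.04 ± 0.17 in C57BR-titled mice (log2, SE). Probe set 10414793, listed for Trav16d-dv11 and Trav7d-6, was high in the same 6 strains, at 226 to 428, whereas arrays of the others read 45.5 to 126. Its nearest strain means were C57L/J and CAST/EiJ, 0.93 apart on the log2 scale.

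**Figure D2:**
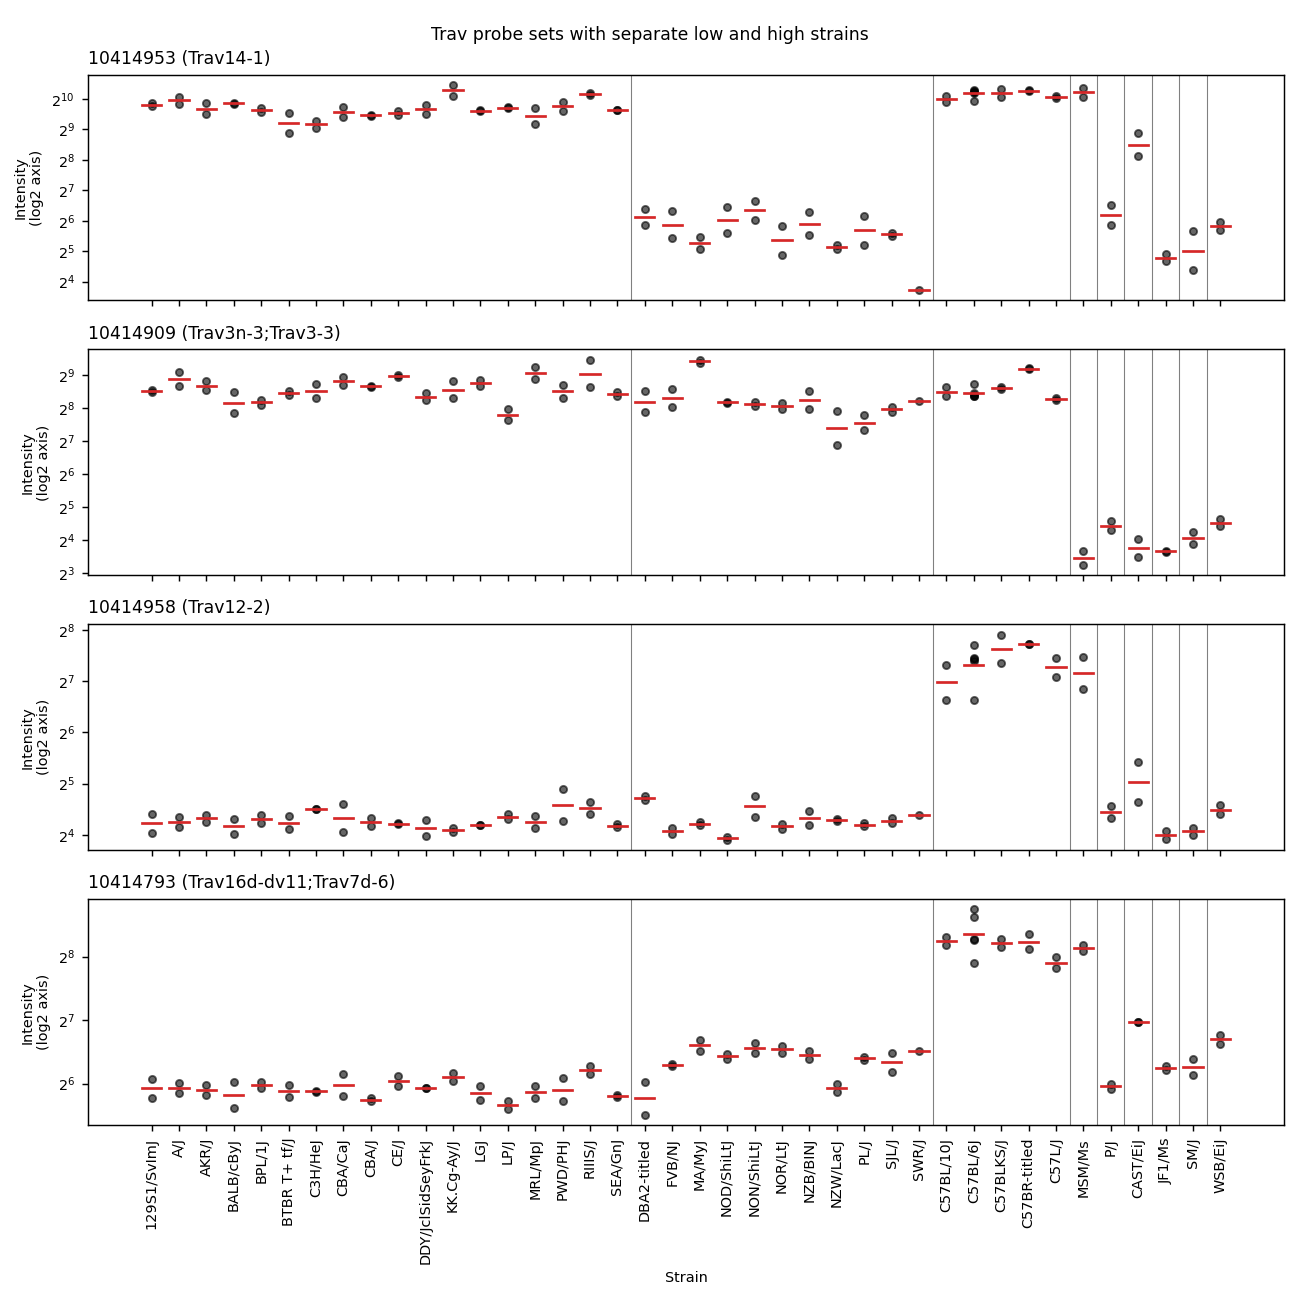
Intensity on each array (points, log2 axis) of 4 Trav probe sets in 40 strains, with the mean of the strain on the log2 scale as a red line and grey lines between the on-off patterns. In the panels of 10414953 and 10414909, 15 and 6 strains sit far below the rest. In those of 10414958 and 10414793, 5 C57 strains and MSM/Ms sit above the rest.

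Other segments were set apart in single strains or small sets. Trav7d-4 (10414734) read 52.1 and 68.0 in WSB/EiJ, against 370 to 2032 on arrays of the other 39 strains (-3.78 ± 0.13, adjusted p = 1.92e-28, limma). The same probe set was highest in JF1/Ms, at 2032 and 1985, where it counts as gained. Probe set 10414784, with Trav4d-4 among its symbols, read 207 and 253 in SM/J and no less than 495 on any array of another strain (-2.28 ± 0.10). It was highest in WSB/EiJ, at 2221 and 2139 (1.06 ± 0.10). Probe set 10415015, with Trav7-4 among its symbols, read 313 and 312 in CAST/EiJ (-1.60 ± 0.12), and 10414728, listed for Trav3n-3 and Trav3-3, read 391 and 357 in JF1/Ms (-1.55 ± 0.11). Their medians over strains were 926 and 1122. Probe set 10414787, with the same symbols as 10414728, was lost in CAST/EiJ (191 and 213, -1.97 ± 0.11) and in MSM/Ms (318 and 388, -1.16 ± 0.11), with a median of 784. Probe set 10414711 was gained in P/J (879 and 732, 1.33 ± 0.15) and in SM/J (648 and 856, 1.22 ± 0.15), with a median of 324.

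The 2 probe sets annotated to Trav14-1 did not agree. The other one, 10414950, was lost in 4 strains, with 86.8 and 87.8 in SM/J, 102 and 150 in JF1/Ms, 129 and 163 in WSB/EiJ and 157 and 181 in CAST/EiJ. Arrays of the other 36 strains read 314 to 1000. SM/J, JF1/Ms and WSB/EiJ were low in both probe sets, CAST/EiJ in 10414950 alone and 12 strains in 10414953 alone. The 2 list no accession in common, so the shared symbol does not show that they read 1 segment.

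The 4 probe sets listed for Trav9d-3 and Trav9d-4 moved together. Their correlations over 40 strain means ran from 0.986 to 0.995, and all 4 were lost in SM/J and CAST/EiJ. Probe set 10414955, the brightest of them, read 716 and 815 in SM/J and 1052 and 1033 in CAST/EiJ, against a median of 2556 over strains. The falls ran from -1.54 to -1.67 in SM/J and from -1.03 to -1.21 in CAST/EiJ. These probe sets share accessions, so they count as 1 observation more than as 4. In all, 19 of the 31 share an accession with another, in groups of 8, 4, 4 and 3. Pairs that share one had a median correlation over strains of 0.944 (37 pairs) and the other pairs one of 0.145 (428 pairs). Counted by such groups, the 39 losses become 33.

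The group of 8, with Trav13-5, Trav3n-3 and Trav3-3 among its symbols, had no loss or gain. It ranged less widely than the probe sets above. Its SDs of strain means still ran from 0.15 to 0.33, against a median of 0.14 over all probe sets. Probe set 10414967 ran from 635 in JF1/Ms to 1457 in NZW/LacJ, and 10414960 from 742 in CAST/EiJ to 1850 in NZW/LacJ. The least variable of the 31, 10414973 of Trav13-5 alone, ran from 399 in A/J to 612 in RIIIS/J (SD of strain means 0.15, adjusted p = 0.017). In the group of 4 with Trav12 symbols, 10414772 ran from 819 in JF1/Ms to 2404 in C57BLKS/J, and 10414769 from 776 to 2284 in those strains. Trav19 (10414981), of 1 symbol, ran from 264 in NOD/ShiLtJ to 654 in CAST/EiJ, and 10414778, with Trav14d-3-dv8 among its symbols, from 503 in P/J to 1568 in C57L/J. None of these had strain means split by a gap of 1 or more on the log2 scale.

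Losses gathered in few strains. CAST/EiJ and SM/J lost 8 probe sets each, in 5 accession groups each, JF1/Ms and WSB/EiJ 4, MSM/Ms and P/J 2, and 11 further strains 1, which was 10414953 in all 11. Over all probe sets the share lost was 0.859 percent in CAST/EiJ, 0.229 percent in SM/J, 0.574 percent in JF1/Ms, 0.345 percent in WSB/EiJ, 0.803 percent in MSM/Ms and 0.136 percent in P/J. SM/J therefore stood beside CAST/EiJ in lost V segments while about as few of all its probe sets were lost as in the strains together. PWD/PHJ lost none of the 31, and 0.562 percent of all probe sets were lost there.

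Set against C57BL/6J alone, 131 losses and 8 gains were called among 1209 pairs of a V segment and a strain, in 39 strains that share the 5 C57BL/6J arrays. Over all probe sets 0.592 percent of pairs were lost and 0.324 percent gained. The count of losses is high largely because 10414958 and 10414793 were each lower than C57BL/6J in 34 strains, which are the strains outside the 6 high ones. Probe set 10414953 was lower in 17 strains and 10414784 in 11. The gains lay in 10414734, higher in JF1/Ms, MSM/Ms, P/J, PWD/PHJ and SM/J, and in 10414711, higher in MSM/Ms, P/J and SM/J.

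To describe which strains share a pattern, 7 probe sets were used whose strain means fall into a low and a high set at least 1 apart on the log2 scale. They are 10414734, 10414784, 10414909, 10414950, 10414953, 10414958 and 10415015. Over these, 40 strains showed 9 patterns. The most common, with 10414958 alone in its low state, was held by 18 strains, namely 129S1/SvImJ, A/J, AKR/J, BALB/cByJ, BPL/1J, BTBR T+ tf/J, C3H/HeJ, CBA/CaJ, CBA/J, CE/J, DDY/JclSidSeyFrkJ, KK.Cg-Ay/J, LGJ, LP/J, MRL/MpJ, PWD/PHJ, RIIIS/J and SEA/GnJ. The pattern with 10414953 low as well was held by 11 strains, DBA2-titled, FVB/NJ, MA/MyJ, NOD/ShiLtJ, NON/ShiLtJ, NOR/LtJ, NZB/BINJ, NZW/LacJ, PL/J, SJL/J and SWR/J. In 5 strains, C57BL/10J, C57BL/6J, C57BLKS/J, C57BR-titled and C57L/J, none of the 7 was low. MSM/Ms, P/J, CAST/EiJ, JF1/Ms, SM/J and WSB/EiJ each had a pattern of their own.

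Strain pairs were then set side by side over all 30 Trav probe sets, counting those whose strain means differed by at least 1 on the log2 scale. Of 780 pairs, 178 differed in none, the median was 2 and the most was 14. The median pair differed in 6.67 percent of the Trav probe sets, and in 0.899 percent of all probe sets. Among the 153 pairs of the 18 strains with the most common pattern, 143 differed in no Trav probe set and the rest in 1. The same held for all 10 pairs of the 5 C57 strains and for 25 of the 55 pairs of the 11 strains. As the patterns were read from 7 of these probe sets, this describes them and tests nothing. SM/J and CAST/EiJ stood farthest from the rest, with a median of 9 differing Trav probe sets each, against 6 for JF1/Ms and for MSM/Ms.

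Strain pairs that differed in more Trav probe sets tended to differ in more of all probe sets, but single strains and pairs departed from this. PWD/PHJ differed from AKR/J in no Trav probe set, yet in 2.48 percent of all probe sets. It shared the Trav state of 17 strains while its median share of differing probe sets was 2.35 percent, above the 2.04 percent of CAST/EiJ. SM/J was the reverse, with a median share of 0.931 percent. JF1/Ms and MSM/Ms differed in 0.65 percent of all probe sets, less than the median pair, but in 5 Trav probe sets, by up to 5.43 on the log2 scale. Over all pairs, the median share of all probe sets that differed was 0.762 percent in the 178 pairs with no differing Trav probe set, 0.839 percent in the 246 with 1 to 2, 0.967 percent in the 215 with 3 to 5 and 1.89 percent in the 141 with 6 or more. Each strain enters 39 of the pairs, so they are no independent points.

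Several pairs of closely related strains matched. NOD/ShiLtJ and NOR/LtJ, CBA/J and CBA/CaJ, 129S1/SvImJ and LP/J, and C57BLKS/J and C57BL/6J differed in no Trav probe set, with 0.217, 0.321, 0.377 and 0.241 percent of all probe sets apart. Not all near pairs did, JF1/Ms and MSM/Ms differing in 5. SWR/J differed from every other strain in at least 1. So did MA/MyJ, which has 2 arrays and the same on-off pattern, and the 6 strains with a pattern of their own. The single SWR/J array read 13.2 in 10414953, below SJL/J (47.1) and FVB/NJ (58.6), though the probe set counts as lost in each. The pair counts thus take in differences among dim values. The arrays titled C57BR differed in none from C57L/J (0.14 percent of all probe sets apart) and in none from C57BL/6J (0.369 percent). From CBA/CaJ, the strain of their background label, they differed in 2, by up to 3.39 on the log2 scale, and in 0.79 percent of all probe sets.

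**Figure D3:**
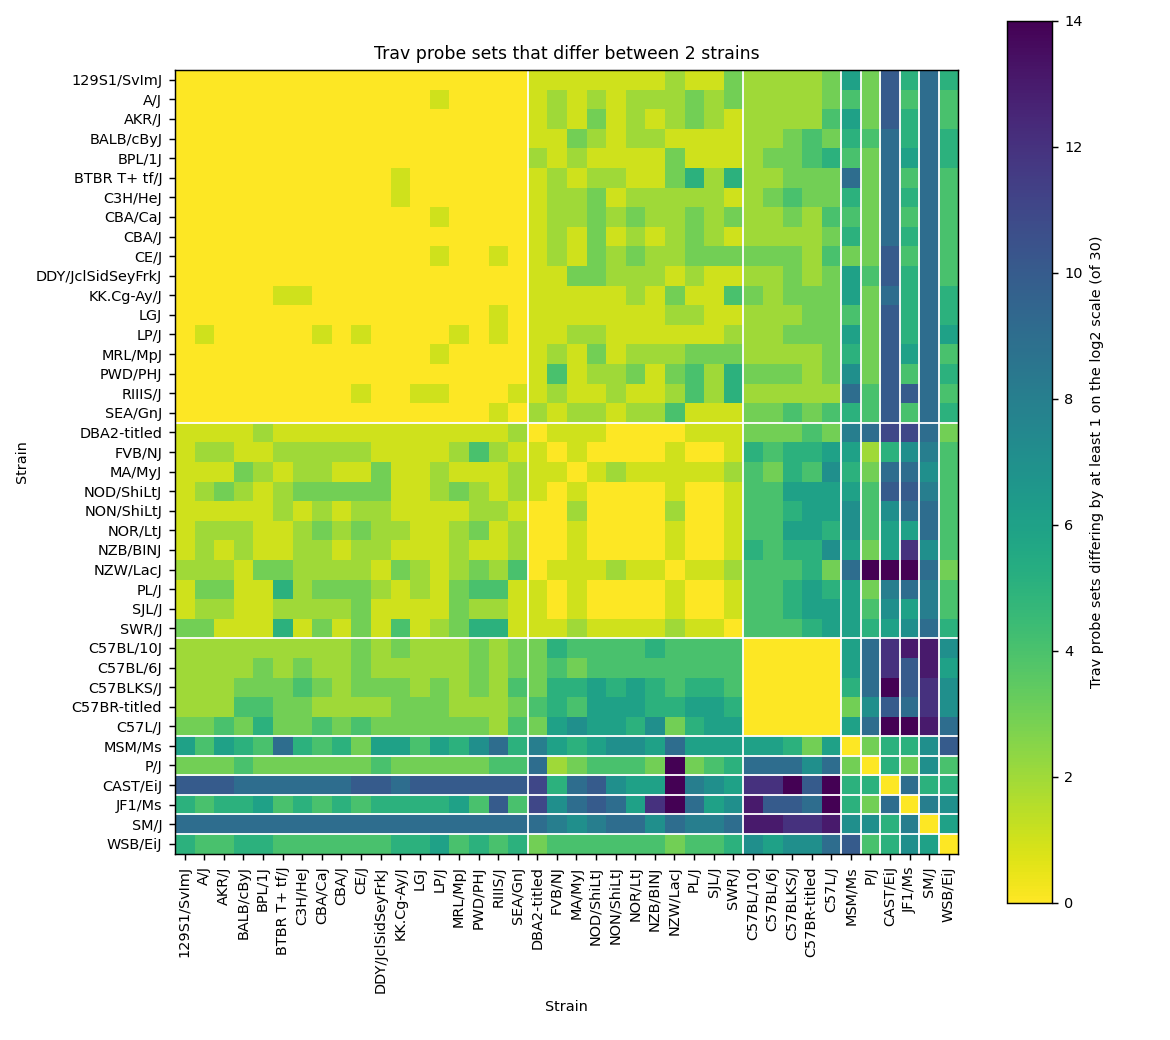
Number of the 30 Trav probe sets that differ by at least 1 on the log2 scale between each 2 of 40 strains, with white lines between the on-off patterns. The 18 strains at the upper left and the 5 C57 strains form light squares of 0 to 1, while CAST/EiJ, SM/J, JF1/Ms and MSM/Ms run as dark bands of up to 14.

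Trbv1 was the only beta chain segment on the list. It is the segment known as V beta 2. In no strain was it lost or gained. It ran from 1681 in CAST/EiJ (arrays at 1715 and 1647) to 5240 in DDY/JclSidSeyFrkJ (5785 and 4746), with a median of 2788, an SD of strain means of 0.40 and a replicate SD of 0.17 on the log2 scale (F-test adjusted p = 7.17e-13, limma). In the order of strain means, neighbours lay at most 0.19 apart on the log2 scale. None of the 12 Trbv segments listed for the comparisons that follow, which the deletions and superantigens are known to remove, had an annotated probe set. The comparisons therefore rest on Trbv1, which the deletions spare, and on the Trav probe sets. The strain types were taken from general knowledge, not from the labels.

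The first asked whether strains that lack a block of Trbv segments differed from the rest. SJL/J, C57BR, C57L/J and SWR/J mice are known for that deletion. Trbv1 read 5211 and 4970 in SJL/J, 4775 and 4893 in C57BR-titled mice, 5322 and 4158 in C57L/J and 3848 on the SWR/J array. The mean of these 4 strains was 4594, against 2781 in 35 others, a difference of 0.72 ± 0.16 on the log2 scale (SE over strain means), or 1.65-fold. Of the 35, DDY/JclSidSeyFrkJ, FVB/NJ and NOR/LtJ lay above SWR/J, so the groups as drawn overlap. The labels give no deletion status, and whether any of the 35 also carries such a deletion was not checked. In limma over all probe sets the adjusted p was 0.183, and no V segment was called, with 0.0201 percent of all probe sets called. An unadjusted p under 0.05 was found in 5 of the 31 and in 3.93 percent of all probe sets. An exact permutation test of Trbv1 alone over the 39 strains, two-sided and added after its values were seen, gave p = 0.000255 (0.000765 adjusted over the 3 comparisons so tested), where the smallest possible was 1.22e-05. Trbv1 was also among the 5 with an unadjusted limma p under 0.05. The limma p was adjusted over 24922 probe sets and the exact p over 3 comparisons. The 2 adjusted values therefore fall on different sides of 0.05 under unlike adjustments. The call rests on the limma fit. The strains of a group are related to each other, C57BR-titled and C57L/J mice differing in 0.14 percent of all probe sets, which neither test takes into account. The Trav probe sets with an unadjusted p under 0.05 were 10414793, 10414958, 10414947 and 10414973. The first 2 are high in C57BR-titled and C57L/J mice and low in SJL/J and SWR/J.

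RIIIS/J, known for a larger Trbv deletion, was set against the same 35 strains. Trbv1 read 5480 and 3994 on its arrays, a mean of 4678, against 2781 in the others (0.75 ± 0.12, SE, adjusted p = 1.03e-05, limma). This contrast came from the fit to all arrays, so its SE and p rest on the spread between arrays of a strain. Unlike those of the deletion strains, they leave out the spread between strains (SD of strain means 0.40, replicate SD 0.17). The calls that follow share this limit. Of the 31 V segments 20 were called higher and 0 lower, whereas of all probe sets 4.3 percent were called higher and 5.82 percent lower. As 19 of the 31 share an accession with another, the 20 are not all separate observations, and they were not counted by accession group. The median difference was 0.32 over the 31 and 0.04 over all probe sets. Of the 6 measured T cell markers, Cd3e, Ccr7 and Lef1 were highest in RIIIS/J among the 40 strains, while Cd3d, Cd3g and Cd4 were highest elsewhere. Of the CD8 T cell markers, Cd8b1 was highest in RIIIS/J and Cd8a in PL/J. The part of these in the result was not tested. Set against the mean of the other 39 strains, 15 V segments were higher in RIIIS/J (4.29 percent of all probe sets), as were 20 in C57BL/6J (7.92 percent), 15 in C57L/J (1.31 percent) and 14 in NZW/LacJ (1.99 percent), so the count is not particular to RIIIS/J. C57BL/6J has 5 arrays, so smaller differences are called there than in the other strains. The count moved with the arrays and the scaling. It was 11 without replicate 1, 11 without replicate 2, and 12 with each array centred on its median. Among those called were 10414953 (1138, against a mean of 292 that takes in the low strains, and a median of 705), 10414950 (809, against 407) and 10414769 (2234, against 1431). The first lies at its high level in 25 strains, so its difference does not mark RIIIS/J out. The mean of 10414950 was higher in RIIIS/J than in any of the 35, of which the highest was 633, but its arrays, at 1000 and 655, overlap with theirs, which reached 780 in C57BL/6J.

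**Figure D4:**
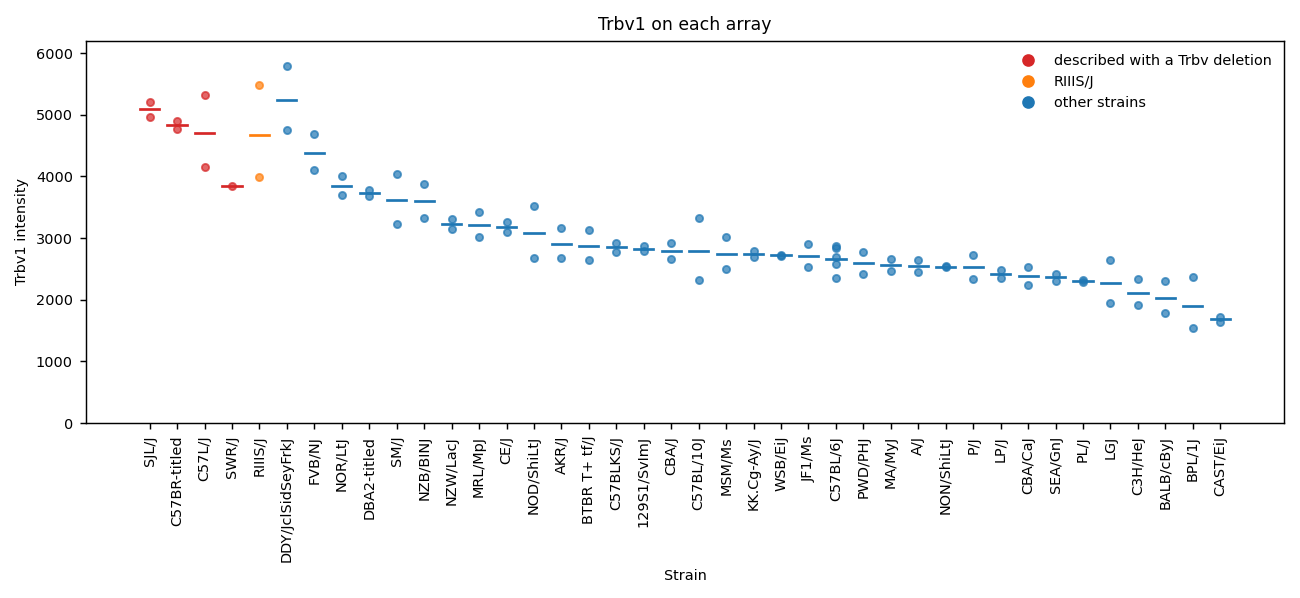
Trbv1 intensity on each array (points) with the strain mean on the log2 scale (lines), for strains known for a Trbv deletion (red), RIIIS/J (orange) and the others in falling order (blue). Deletion strains lie at 3848 to 5322 and RIIIS/J at 3994 and 5480. Among the others, all arrays of DDY/JclSidSeyFrkJ and FVB/NJ lie above 3848. So do the higher arrays of NOR/LtJ (4011), SM/J (4046) and NZB/BINJ (3885).

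Superantigens were the subject of the last comparisons. The class II molecule H2-E presents viral superantigens that remove T cells of several Trbv segments. Trbv1 averaged 3055 over 8 strains known to lack H2-E (C57BL/6J, C57BL/10J, 129S1/SvImJ, LP/J, BTBR T+ tf/J, FVB/NJ, NOD/ShiLtJ and NOR/LtJ), and 2747 over 15 known to bear it (A/J, AKR/J, BALB/cByJ, C3H/HeJ, CBA/CaJ, CBA/J, C57BLKS/J, CE/J, MA/MyJ, MRL/MpJ, NZB/BINJ, NZW/LacJ, P/J, PL/J and SM/J). The difference was 0.15 ± 0.11 on the log2 scale (SE, adjusted p = 0.926 in limma, and p = 0.208 in the exact two-sided permutation test). Strain means ran from 2420 to 4386 where H2-E is lacking and from 2034 to 3615 where it is borne. No V segment was called in limma, with 0.00401 percent of all probe sets called. An unadjusted p under 0.05 was found in 1 of the 31 and in 4.65 percent of all probe sets.

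The Mls-1a superantigen of an endogenous mammary tumour virus is carried by AKR/J, CBA/J and DBA mice. Trbv1 averaged 3116 over AKR/J, CBA/J and DBA2-titled mice and 2461 over 7 strains of the other type (129S1/SvImJ, A/J, BALB/cByJ, C3H/HeJ, C57BL/6J, C57BL/10J and CBA/CaJ), a difference of 0.34 ± 0.12 (SE, adjusted p = 0.955, limma). The exact two-sided permutation test gave p = 0.0333, or 0.05 adjusted over the 3 comparisons, where the smallest possible was 0.00833. Only 129S1/SvImJ, at 2831, lay above the lowest of the 3, CBA/J at 2792. No V segment was called in limma, with 0 percent of all probe sets called. The unadjusted p lay under 0.05 in 2 of the 31 and in 4.06 percent of all probe sets. Without DBA2-titled mice the difference was 0.21. CBA/J and CBA/CaJ, which are closely related and differ in Mls-1, read 2667 and 2923 in CBA/J, against 2531 and 2238 in CBA/CaJ (0.23 ± 0.17, SE, adjusted p = 0.999, limma). No V segment was called between them, with 0.361 percent of all probe sets called, and none had an unadjusted p under 0.05, against 5.03 percent of all probe sets.

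Likeness of pattern was measured by the correlation of strain means on the log2 scale over 40 strains, across all probe sets with 1 symbol. The closest to 10414909 were Hid1 (r = 0.76) and Armc7 (0.72), followed by Trav14-1 read by 10414950 (0.71). The closest to 10414953 were Ube2d2a (0.57) and Lpxn (0.57). The closest to Trbv1 were Sfxn3 (0.56), Tulp4 (0.55) and Fam214b (0.52). The strains share ancestry, so these are descriptions of likeness and carry no p.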

How the data were processed

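Naive CD4 T cells of 40 strain groups were read on 82 Affymetrix ST1.0 arrays. The deposited table holds 1 linear intensity per probe set and array, which the authors made with RMA and Affymetrix Power Tools, per the submitters' processing notes. Versions, genome build and filters are not given in the sources used here. Their log2 was used as it stood, unfiltered and not normalized again. limma 3.58.1 in R 4.3.3 fitted 1 coefficient per strain group to all 24922 probe sets (42 residual degrees of freedom, prior 8.09). For the deletion, H2-E and Mls-1 comparisons, limma was run on the strain means with strains as replicates. The contrasts of RIIIS/J, of CBA/J with CBA/CaJ and of single strains with the others used the fit to all arrays. Benjamini-Hochberg adjustment ran over all probe sets. Mean values of groups are means on the log2 scale, given as intensities. On simulated data, 100 percent of planted losses of -1.5 and of -3 were recovered, with 1 false loss in all. The simulated strains differed in nothing else, and each loss was planted in 1 strain. Sizes nearer 1 were not tried.

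Symbols came from the platform annotation, matched to RefSeq names of the GRCm38.p6 assembly. No V segment sequences or probe sequences were used here. Members, strain sets and lists were chosen with earlier results of these data known. Named probe sets were those with the largest SD of strain means and an intraclass correlation of at least 0.8, those lost or gained, and those with the largest differences in a comparison. Others were named to show the less variable V segments after their values were seen. Arrays are pools that the series calls biological replicates, and their number limits precision. Replicate numbers did not pair samples. Over 630 pairs of strains, deviations of same-numbered arrays correlated from -0.63 to 0.57, and 31.6 percent of them over 0.1. The alternatives were other normalizations, an offset of 32, a filter on the dimmest 40 percent, another prior, single-symbol probe sets, a replicate block and leaving out arrays or strains.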

Additional observations from a re-analysis of the deposited data

Results flagged for a closer look

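Only C57BL/6J has the 4 arrays or more that this comparison of 1 array with its group needs, and chance alone sets 1 array apart in about 1 of 20 groups. Of 34 groups of values tested, 31 were the C57BL/6J arrays of 1 probe set each, and the rest were Trbv1 strain means within sets of strains compared above. In 6 groups, all among the 31, the gap of 1 array to the next took up most of the group's range. The 31 rest on the same 5 arrays, so they are not independent groups. On replicate 1, the highest array, 10414909 (Trav3n-3 and Trav3-3) read 426.56 with the other 4 arrays between 326.85 and 348.94, 10414772 (Trav12 symbols) read 2617 with the others between 1989 and 2068, 10414769 (Trav12 symbols) read 2522.8 with the others between 1872 and 1943, and 10414967 (Trav3n-3 and Trav3-3) read 1415 with the others between 1149 and 1216. On replicate 2, 10414958 (Trav12-2) was lowest at 98.477, with the others between 167.84 and 208.46. On replicate 5, 10414973 (Trav13-5) was highest at 659.61, with the others between 474.53 and 508.67. The 2 Trav12 probe sets share accessions and are not separate observations.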

How the results depend on the processing

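Leaving out each array in turn gave 31 V segments past the F-test, 38 to 40 losses, 47 to 49 gains, and 11 to 21 called in RIIIS/J, the 11 being without either of its own arrays, which leaves it 1 array taken to vary like the rest. The RIIIS/J count of 20 was 12 with arrays centred on their medians and 4 among the 7 single-symbol probe sets. Those 7 all passed the F-test and held 20 losses and 31 gains. A size of at least 2 on the log2 scale left 23 losses and 12 gains, and comparison with C57BL/6J alone gave 131 losses and 8 gains. With the replicate block the counts were 31, 39 losses, 48 gains and 20, and the Trbv1 difference in RIIIS/J 0.75. The block changed no call. All 31 F-test results stayed past the threshold wherever they could be computed, the dim filter leaving out 10414958. So did the losses except that of 10414760 in CAST/EiJ, which fell short of 1 on the log2 scale after quantile normalization (-0.93) and without CAST/EiJ replicate 2 (-0.94). The adjusted p of Trbv1 in limma ran from 0.0546 (quantile normalization) to 0.801 (without C57L/J) for the deletion strains, from 1.35e-07 to 0.0356 for RIIIS/J, and from 0.656 to 1 for the Mls-1a strains. Dim values limit the size of a loss. Segments that fell to values under 25, where 10.2 percent of all values lie, may have fallen further than their differences show.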
